A study of Mus musculus with 8 samples.

Results

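The genes described here encode subunits of Polycomb complexes, H3K27 demethylases and KMT2 histone methyltransferases. The measurement is where METTL14 and METTL3 peaks fell on these genes in mouse embryonic stem cells. The 35 genes were chosen by name, of 21900 protein-coding genes in the annotation, with earlier results of these data known. Their shares set against all genes are therefore a description and not a test. They comprise 6 genes of the core of Polycomb repressive complex 2 (PRC2), 5 PRC2 accessory genes, 8 genes of the PRC1 core and 7 of canonical PRC1. The others are 3 genes of variant PRC1, the H3K27 demethylase genes Kdm6a and Kdm6b, and 4 Kmt2 genes. METTL14 was profiled by CUT&RUN, in which an antibody brings a nuclease to the places on chromatin where its target protein sits, in cells labelled Mettl3 CKO and Mettl3 control. METTL3 was profiled likewise in cells labelled Mettl14 CKO and Mettl14 control. Each of the 4 groups had 2 libraries, all from C57BL/6 embryonic stem cells kept with serum, LIF and the inhibitors CHIR99021 and PD0325901. The labels do not spell out CKO, name the Cre or its driver, or say whether replicates were separate cultures or clones. Any p-value over libraries therefore measures the spread between these libraries, which may be technical.

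PRC2 places methyl groups on lysine 27 of histone H3, a mark of silenced developmental genes in embryonic stem cells, and PRC1 ubiquitinates histone H2A and compacts chromatin at such genes. The demethylases KDM6A and KDM6B remove the H3K27 mark, and the KMT2 enzymes methylate H3K4 at active or poised promoters and enhancers. METTL3 and METTL14 are the paired subunits of the methyltransferase that adds m6A, a methyl mark on adenosine, to RNA, and the series asks where both proteins sit on chromatin. Peaks here report on the genes that encode the Polycomb machinery, not on the sites that Polycomb proteins occupy, and expression was not measured, so the cell type label could not be checked by marker levels. Of 6 pluripotency genes, 3 and 1 had a METTL14 peak in Mettl3 CKO libraries, against 2 and 1 in Mettl3 control libraries, where 12.9% and 4.91% of all protein-coding genes did in CKO and 9.71% and 11.2% in control libraries. None had a region called in both libraries of a group.

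The METTL14 lists held 3922 and 1439 peaks in Mettl3 CKO libraries, against 3129 and 3546 in Mettl3 control libraries. The METTL3 lists held 242 and 344 peaks in Mettl14 CKO libraries, against 353 and 341 in Mettl14 control libraries. The read depth behind the lists is unknown, and each list says only where signal passed the authors' threshold. METTL14 list length differed more between the CKO libraries than between groups, so counts of genes are given beside the share of all protein-coding genes with a peak in the same library. Neither a nonspecific antibody nor either antibody in cells without the protein it binds was analysed here. Of the 2 genes that the line labels name, Mettl3 had no peak in any list and Mettl14 had a METTL14 peak in Mettl3 CKO replicate 1 alone, which does not check the genotype.

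Promoter sequences of 4 genes are shown first, because METTL14 regions called in both libraries of a group lay in or within 1 kb of them. Each runs 5′ to 3′ on the strand of the gene, from 250 bases before the annotated transcription start to 50 bases from it, with letters from RefSeq (GRCm38.p6, the assembly behind mm10). Capitals mark bases under peaks of at least 2 of the 4 METTL14 libraries. Bmi1 lies at chr2:18676768-18677067 on the plus strand, Cbx8 at chr11:119040864-119041163, Ezh2 at chr6:47594981-47595280 and Phc1 at chr6:122340178-122340477, all on the minus strand except Bmi1.
Bmi1 promoter: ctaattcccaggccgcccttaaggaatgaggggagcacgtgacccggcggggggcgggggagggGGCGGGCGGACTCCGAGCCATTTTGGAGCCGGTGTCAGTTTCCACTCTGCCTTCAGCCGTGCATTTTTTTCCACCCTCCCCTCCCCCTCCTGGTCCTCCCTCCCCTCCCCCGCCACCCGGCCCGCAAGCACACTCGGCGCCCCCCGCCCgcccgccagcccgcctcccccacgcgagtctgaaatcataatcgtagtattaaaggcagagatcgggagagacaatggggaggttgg
Cbx8 promoter: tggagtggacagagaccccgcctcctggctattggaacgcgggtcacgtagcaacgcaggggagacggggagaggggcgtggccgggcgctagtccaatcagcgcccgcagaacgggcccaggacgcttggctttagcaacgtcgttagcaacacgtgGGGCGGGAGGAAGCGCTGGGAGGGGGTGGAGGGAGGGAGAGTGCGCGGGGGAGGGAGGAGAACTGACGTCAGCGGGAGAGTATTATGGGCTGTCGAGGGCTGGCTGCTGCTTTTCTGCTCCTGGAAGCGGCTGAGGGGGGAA
Ezh2 promoter: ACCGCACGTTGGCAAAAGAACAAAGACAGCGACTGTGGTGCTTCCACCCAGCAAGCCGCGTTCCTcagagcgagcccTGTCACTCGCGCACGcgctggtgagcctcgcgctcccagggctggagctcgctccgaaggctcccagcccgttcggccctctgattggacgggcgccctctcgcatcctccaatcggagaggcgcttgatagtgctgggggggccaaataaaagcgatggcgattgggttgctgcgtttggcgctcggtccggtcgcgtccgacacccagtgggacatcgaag
Phc1 promoter: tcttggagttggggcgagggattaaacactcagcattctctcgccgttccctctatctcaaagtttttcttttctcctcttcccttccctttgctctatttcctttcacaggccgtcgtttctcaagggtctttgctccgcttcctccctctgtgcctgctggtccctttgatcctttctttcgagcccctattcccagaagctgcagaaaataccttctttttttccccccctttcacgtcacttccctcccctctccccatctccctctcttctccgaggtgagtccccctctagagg
In Bmi1 the 149 capital bases hold 12 of the 23 CG dinucleotides of the promoter, and in Cbx8 the 142 capital bases hold 8 of 24. In Ezh2 80 bases are in capitals, at the upstream end of the printed stretch, with 8 of 31 CG dinucleotides. Phc1 has none in capitals, because its peaks lie upstream of the printed stretch, and it has 9 CG dinucleotides.

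Among the 35 genes, 17 (48.6%) had a METTL14 peak in the gene or within 2 kb of it in at least 1 of the 4 METTL14 libraries, against 20.8% of all protein-coding genes. Jarid2, Bmi1, Cbx8 and Phc1 had a peak in all 4 libraries (11.4% of the 35, against 2.53% of all genes). Ezh2 and Pcgf1 had one in 3 libraries, so that 6 genes had one in 3 or 4 libraries (17.1%, against 5.4% of all genes). Phf1, Phf19, Kdm2b and Kdm6b had one in 2 libraries, and a further 7 genes in 1 (20.0%, against 10.8% of all genes). The other 18 genes had none, among them the PRC2 core genes Ezh1, Eed, Suz12 and Rbbp7 and both Ring genes, Ring1 and Rnf2, which encode the E3 ligases of PRC1. The genes spanned 3304 to 227061 bp (median 35349 bp), longer than all protein-coding genes (median 17146 bp). Among the 17383 protein-coding genes within that span of lengths, 2.69% had a peak in all 4 libraries.

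In single libraries 14 and 6 of the 35 genes had a METTL14 peak in Mettl3 CKO cells, against 9 and 8 in Mettl3 control cells. All protein-coding genes had peaks at shares of 12.9% and 4.91% in the CKO libraries and of 9.71% and 11.2% in the control libraries, so the share of the 35 genes was above that background in each of the 4 lists. The number of genes averaged 10.0 ± 5.66 in Mettl3 CKO and 8.5 ± 0.707 in Mettl3 control libraries (SD, n = 2 each), a difference of 1.5 genes (two-sided exact permutation p = 1). The CKO libraries lay on both sides of the controls. The difference became -2.5 when CKO replicate 1 was left out and 5.5 when CKO replicate 2 was left out, so its sign rested on which of these lists was used.

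**Figure D1:**
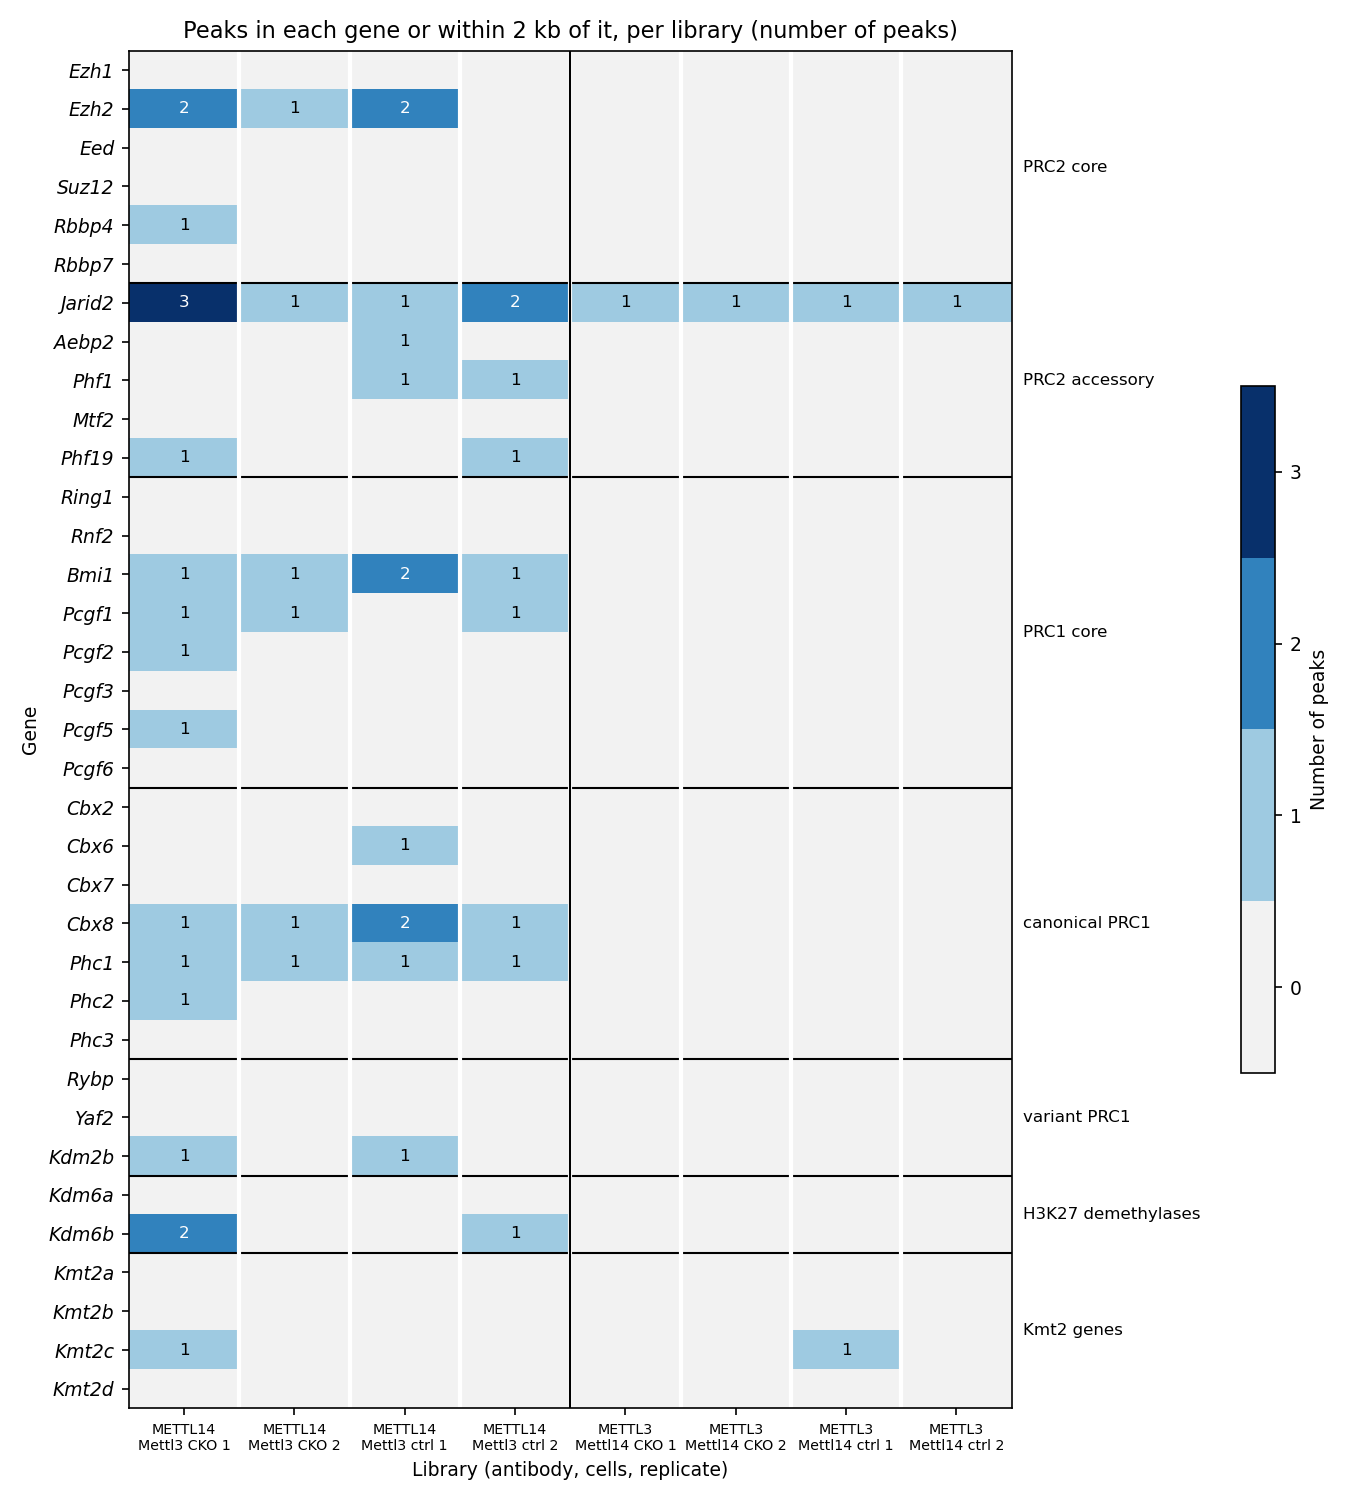
Number of peaks in each of the 35 genes or within 2 kb of it (rows, grouped by complex) in the 8 libraries (columns, CKO left of control within each antibody). Jarid2 has a peak in every column, while Bmi1, Cbx8 and Phc1 have one in each METTL14 column and none in the METTL3 columns.

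**Figure D2:**
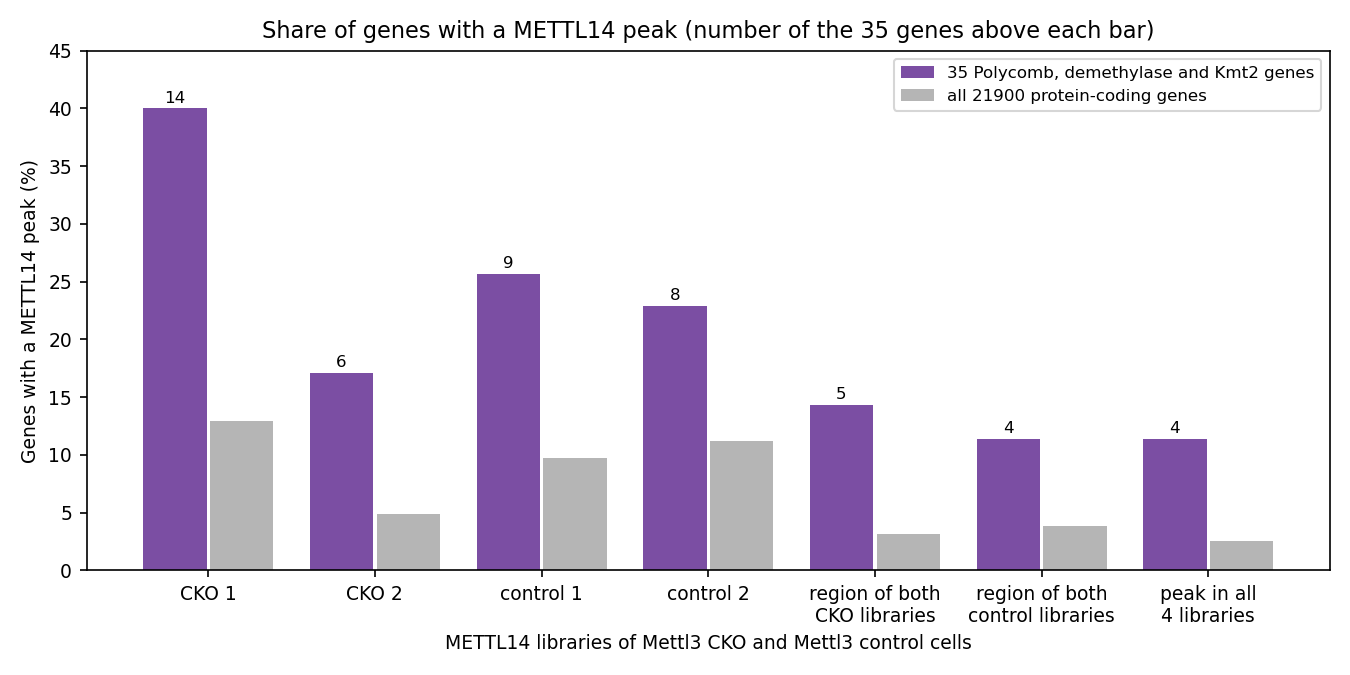
Percent of the 35 genes (purple) and of all 21900 protein-coding genes (grey) with a METTL14 peak in the gene or within 2 kb, per library, for regions called in both libraries of a group, and in all 4 libraries. The number above each purple bar is the count of the 35 genes, 14 and 6 in CKO and 9 and 8 in control libraries.

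The share of a list's own peaks that lay at the 35 genes is less tied to list length than a count of genes, but still moves with it. It was 0.459% (95% Wilson interval 0.291% to 0.724%) and 0.417% (0.191% to 0.907%) in the Mettl3 CKO lists. In the Mettl3 control lists it was 0.384% (0.22% to 0.669%) and 0.254% (0.134% to 0.482%). These shares come from 18 and 6 peaks in CKO and from 12 and 9 peaks in control lists, and the intervals cover counting error only. Both CKO lists were above both control lists, by 0.119 percentage points on average, with overlapping intervals (two-sided exact permutation p = 0.333, the smallest that 2 against 2 libraries allow). With every METTL14 list shortened in its deposited order to 1439 peaks, the counts were 8 and 6 genes in CKO and 5 and 4 in control libraries. All genes then had shares of 4.63% and 4.91% in CKO and of 4.4% and 4.33% in control libraries, and the exact permutation p for the number of genes was again 0.333. At that length the share of list was 0.556% and 0.417% in CKO libraries, against 0.486% and 0.347% in control libraries. The difference in share fell to 0.0695 percentage points and the groups overlapped (exact permutation p = 0.667).

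Regions called in both libraries of a group were found at 5 genes in Mettl3 CKO cells (14.3%, against 3.15% of all protein-coding genes) and at 4 in Mettl3 control cells (11.4%, against 3.82%). The CKO genes were Ezh2, Jarid2, Pcgf1, Cbx8 and Phc1, and the control genes were Jarid2, Phf1, Bmi1 and Cbx8. Jarid2 and Cbx8 had such a region in both groups, 2 of the 5 CKO genes and 2 of the 4 control genes (5.71% of the 35, against 1.78% of all genes). In either group 7 genes had one (20.0%, against 5.19% of all genes). Among the 17383 protein-coding genes no shorter and no longer than the 35, which are not matched to them in median length, the shares were 3.37% in CKO and 4.12% in control cells. Bmi1 and Phc1 had a peak in all 4 libraries, and for them the groups differed in whether the 2 peaks of a group overlapped. Ezh2 and Pcgf1 each lacked a peak in 1 control library. None of the 35 genes had a peak in both CKO libraries and in neither control library (0.466% of all genes did). Phf1 alone had the opposite pattern, with both control and neither CKO library (0.89% of all genes).

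In the PRC2 core 2 of 6 genes had a METTL14 peak in any library, where 20.8% of all protein-coding genes did. Ezh2 encodes the main H3K27 methyltransferase and lies at chromosome 6: 47530274 to 47595270. It had 2 peaks in CKO replicate 1 and 1 in CKO replicate 2, against 2 in control replicate 1 and none in control replicate 2. The peaks nearest the transcription start centred at -233 and -99 bp from it in CKO libraries (negative is upstream) and at -260 bp in control replicate 1. The CKO pair formed the region at chromosome 6: 47595055 to 47595337. The 3 peaks shared no base, since that of control replicate 1 did not overlap that of CKO replicate 2. A further site centred at 636 bp in CKO replicate 1 and at 650 bp in control replicate 1. The other gene was Rbbp4, a histone-binding subunit, with 1 peak in CKO replicate 1, at -134 bp from its start. That peak also lay within 2 kb of the neighbouring gene Zbtb8os.

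Of the 5 PRC2 accessory genes 4 had a METTL14 peak in any library (20.8% of all protein-coding genes did), and Mtf2 had none. Jarid2, whose product helps to recruit PRC2, is at chromosome 13: 44730774 to 44921643. It had 3 and 1 METTL14 peaks in CKO libraries, against 1 and 2 in control libraries, and 1 METTL3 peak in each of the 4 METTL3 libraries. All 8 lists had a peak at a single interior site, and the 8 peaks shared the 104 bases from 44869591 to 44869694, inside the gene. The peaks centred 138334 to 138394 bp downstream of the nearest annotated start. Whether the site is repetitive, or gives a peak with any antibody, was not tested, since neither its sequence nor a nonspecific-antibody library was analysed here, and every METTL3 result at the 35 genes except the single Kmt2c peak rests on it. Just 0.119% of all protein-coding genes had a peak in all 8 lists. At the Jarid2 start the lists differed: CKO replicate 1 had peaks centred at 133 and 2590 bp from a start, control replicate 2 had one at -158 bp, and the remaining METTL14 libraries had none there.

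Phf1 encodes a Polycomb-like subunit that binds methylated H3K36, and lies at chromosome 17: 26933127 to 26937908. It had no peak in either CKO library, against 1 in each control library, and the control region was at chromosome 17: 26939513 to 26939669. That region lay 1605 bp beyond the end of Phf1 and inside the neighbouring gene Cuta (26937972 to 26939884), so that when a peak was given only to the gene with the nearest boundary, Phf1 was no longer counted. Phf19, another Polycomb-like gene, had 1 peak in CKO replicate 1 and 1 in control replicate 2. These overlapped by 77 bases, 8824 and 8752 bp downstream of the start. Aebp2 had 1 peak, in control replicate 1, at -262 bp from a start.

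In the PRC1 core 4 of 8 genes had a METTL14 peak in any library (20.8% of all protein-coding genes did). Bmi1, a PCGF subunit known as a regulator of stem cell self-renewal, is at chromosome 2: 18677018 to 18686629. It had 1 and 1 peaks in CKO libraries, against 2 and 1 in control libraries. The CKO peaks centred at -371 and -112 bp from the start and did not overlap each other, so no CKO region was called. The control peaks centred at -112 and 239 bp in replicate 1 and at -16 bp in replicate 2, and gave the region at chromosome 2: 18676832 to 18677076. Peaks of CKO replicate 2 and both control libraries overlapped in 53 bases. The region lay 601 bp from the upstream neighbour Commd3 (18672435 to 18676231), so these peaks fall within 2 kb of both genes.

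Pcgf1, a subunit of a variant PRC1 that contains KDM2B, had 1 peak in each CKO library, against none in control replicate 1 and 1 in control replicate 2. The 3 peaks shared 117 bases inside the gene (chromosome 6: 83077552 to 83080855), and the CKO region was at 83078417 to 83078597. Pcgf2 and Pcgf5 each had 1 peak, both in CKO replicate 1, centred at -91 and -153 bp from a start. Pcgf2 encodes MEL18, a close relative of BMI1. Ring1, Rnf2, Pcgf3 and Pcgf6 had none in any list.

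In canonical PRC1 4 of 7 genes had a METTL14 peak in any library (20.8% of all protein-coding genes did). Cbx8, whose chromodomain reads methylated H3K27, is at chromosome 11: 119036303 to 119040913. It had 1 and 1 peaks in CKO libraries, against 2 and 1 in control libraries. A peak of each library lay across or beside the transcription start, centred at -18 and -92 bp in CKO libraries, against -15 and 44 bp in control libraries. The 4 peaks shared 13 bases, the regions being chromosome 11: 119040857 to 119041079 in CKO and 119040795 to 119041002 in control cells. Control replicate 1 had a second peak, at -367 bp. Cbx2, the gene next to it at 119023019 to 119031275, had no peak in any list.

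Phc1 encodes a polyhomeotic subunit whose SAM domain lets PRC1 polymerise, and had 1 peak in each of the 4 METTL14 libraries. In CKO libraries they centred at -799 and -813 bp from the start, and in control libraries at -1216 and -801 bp. The CKO region was chromosome 6: 122340952 to 122341114. The peak of control replicate 1 did not overlap the other 3, which shared 135 bases. Phc2 and Cbx6 had 1 peak each, Phc2 in CKO replicate 1 and Cbx6 in control replicate 1. Cbx7 and Phc3 had none.

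Peaks at the other genes were few and not shared by the libraries of a group. Of the variant PRC1 genes Kdm2b, whose product binds unmethylated CpG islands, had 1 peak in CKO replicate 1 and 1 in control replicate 1. They centred at -25098 and -38818 bp from the nearest start, inside the gene, and did not overlap. Rybp and Yaf2 had none. Of the H3K27 demethylase genes Kdm6b had 2 peaks in CKO replicate 1, against 1 in control replicate 2, and a peak of each shared 55 bases. Kdm6a had none. Among the Kmt2 genes only Kmt2c had a METTL14 peak, in CKO replicate 1, at -692 bp from its start, and Kmt2a, Kmt2b and Kmt2d had none. By complex, genes with a region called in both libraries numbered 1 of 6 in CKO and 0 of 6 in control cells for the PRC2 core, and 1 of 5 in CKO and 2 of 5 in control cells for PRC2 accessory genes. They numbered 1 of 8 in each group for the PRC1 core, 2 of 7 in CKO and 1 of 7 in control cells for canonical PRC1, and 0 in both groups for variant PRC1, the demethylase genes and the Kmt2 genes. Such a region was at 3.15% of all protein-coding genes in CKO and at 3.82% in control cells. With 2 to 8 genes in a complex, these counts set no complex apart from another or from all genes. With a window of 5 kb in place of 2 kb, Kdm6b had a region of both libraries in CKO and in control cells. The share of all genes was not counted at 5 kb.

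Over the 4 METTL14 libraries the 45 peaks at the 35 genes merged into 27 sites. Of these, 17 were called in 1 library, 4 in 2, 4 in 3 and 2 in all 4, the last being the interior Jarid2 site and the Cbx8 start. For the 29 genes with an annotated start in the promoter table, 28 of 39 peaks centred within 2 kb of a start and 21 within 500 bp. Of the 28, 22 were upstream and 6 downstream of the nearest annotated start. Some upstream peaks, as at Pcgf2 and Pcgf5, lay inside the gene. By library the counts within 2 kb were 11 of 15 and 4 of 5 in CKO, against 9 of 12 and 4 of 7 in control cells. Among all METTL14 peaks in or within 2 kb of protein-coding genes that have an annotated start, 74.9% and 79.1% overlapped a 2 kb window around one in CKO libraries, against 65.9% and 70.5% in control libraries. The first counts go by the peak centre and the percentages by any overlap, so the 2 are not compared, and a difference in placing was not tested.

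**Figure D3:**
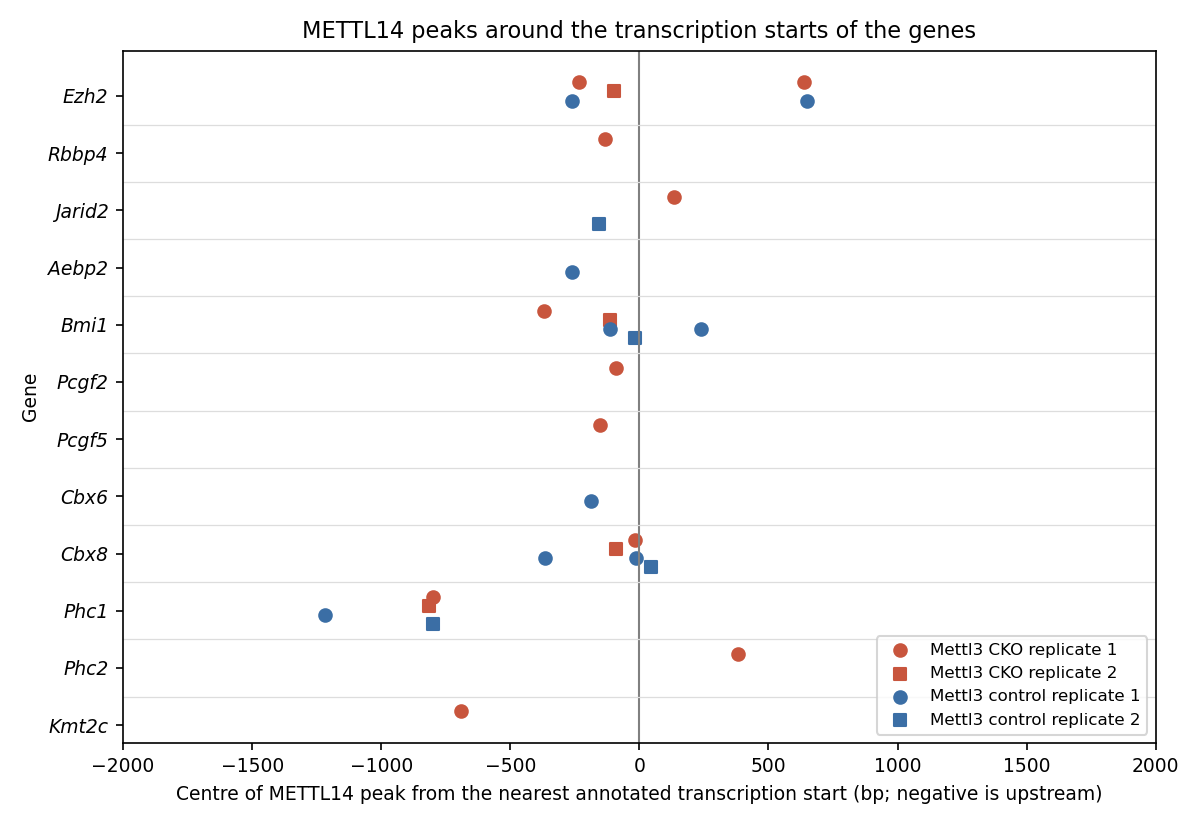
Distance in bp from the nearest annotated transcription start to the centre of each METTL14 peak within 2 kb, for the 12 genes that had one (negative is upstream). Circles and squares are replicates 1 and 2, red Mettl3 CKO and blue Mettl3 control, and peaks of all 4 libraries gather within 500 bp at Bmi1 and Cbx8 and between -1216 and -799 bp at Phc1.

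Counting around transcription starts alone depends less on the length of the genes. It does not remove it, since a gene with several annotated starts has a window at each. Within 2 kb of a start, 10 and 4 of the 29 genes had a METTL14 peak in CKO libraries, against 6 and 4 in control libraries. All 17492 protein-coding genes with an annotated start had shares of 10.1% and 3.87% in CKO libraries and of 6.64% and 8.4% in control libraries. Bmi1, Cbx8 and Phc1 had such a peak in all 4 libraries, 10.3% of the 29, against 1.88% of all. Regions of both libraries lay within 2 kb of a start at 3 of 29 genes in CKO (2.46% of all genes) and at 2 of 29 in control cells (3.03% of all genes).

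The promoters of these genes were rich in CG dinucleotides. A single promoter of 300 bases was counted per gene, which for a gene with several starts need not be the one near its peak. The 29 promoters had a median of 24 CG (range 4 to 56), against 13 for those of all protein-coding genes. Their median GC content was 66%, against 56.3%. Of all genes, 26.1% of those with 15 to 29 CG had a METTL14 peak within 2 kb of a start in any library, as did 24.3% of those with more CG, 11.9% of those with 5 to 14 and 1.92% of those with 0 to 4, so the share did not keep rising with CG. The 3 of the 29 genes with under 15 CG all had such a peak. Among promoters with 15 or more CG, 9 of 26 Polycomb, demethylase and Kmt2 genes had a peak within 2 kb of a start in any library, where 25.5% of all such genes did. In all 4 libraries it was 2 of 26, where 3.2% of all such genes did. Against 15.5% of all genes with a start, 12 of the 29 (41.4%) had a peak in any library, so the gap to the background was narrower among CG-rich promoters. Among the 29, the 12 with a peak had a median of 24 CG (range 4 to 56) and the 17 without had 27 (range 15 to 41). The ranges overlapped, and the difference was not tested. The motif GGGCGG, searched on both strands, was in 22 of 29 promoters (46.3% of all promoters), CCAAT in 10 of 29 (39% of all) and TATAAA in 0 of 29 (13.3% of all). Counting overlapping matches, GGGCGG occurred 6 times in the Bmi1 promoter and once in that of Cbx8, and CCAAT 3 times in that of Ezh2 and 2 times in that of Cbx8. A match is a description of the letters and not a bound site.

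The place of a peak in its deposited list differed strongly between the genes. What orders the lists is not given in the sources used here, and the score is 1 for every peak. The Jarid2 interior site stood at 1.3% and 3.75% of the list length in CKO libraries, against 1.63% and 1.49% in control libraries. The first Cbx8 peak stood at 13.3% and 14% in CKO libraries, against 8.21% and 7.05% in control libraries. The value for control replicate 1 is that of its peak at -367 bp, and its peak at the shared Cbx8 start site stood at 21.5%. The first Bmi1 peak stood at 13.6% and 21.1% in CKO libraries, against 15% and 18.6% in control libraries. Phc1 stood lower, at 25.5% and 69.4% in CKO libraries, against 22.7% and 41.8% in control libraries. Ezh2 stood at 52.4% and 43% in CKO libraries and at 27.9% in control replicate 1, and Phf1 at 62.7% and 75.9% in the control libraries. Pcgf1 stood at 23.8% and 93.3% in CKO libraries and at 21.7% in control replicate 2. Among these genes, Jarid2 stood earliest in each METTL14 list. These percents depend on list length, so a difference in percent need not be a difference in place. Counted from the top, Jarid2 stood at places 51 and 54 in CKO lists, against 51 and 53 in control lists. Phc1 stood at places 1000 and 999 in the CKO lists of 3922 and 1439 peaks. By contrast, Cbx8 stood at 521 and 202 there, and Pcgf1 at 935 and 1343.

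**Figure D4:**
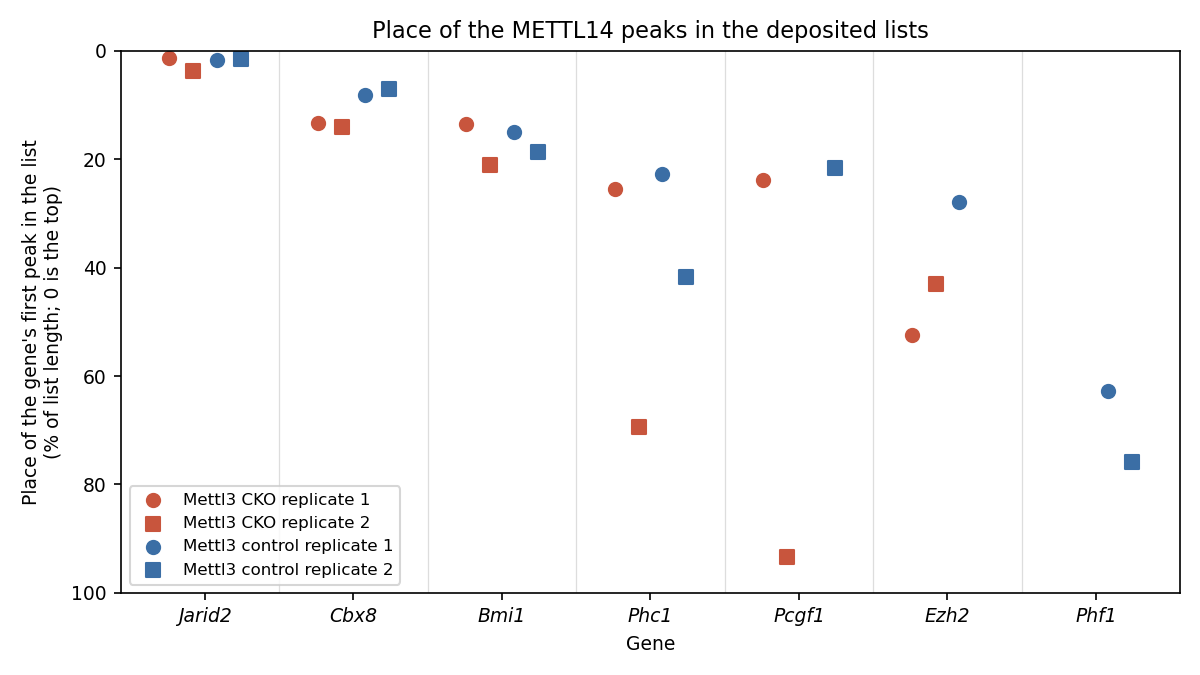
Place of the first METTL14 peak of each gene in its deposited list, as a percent of the list length (vertical axis, with the top of the list uppermost), for the 7 genes with a region called in both libraries of a group. Red is Mettl3 CKO and blue Mettl3 control, circles are replicate 1 and squares replicate 2, and Jarid2 lies between 1.3% and 3.75% in all 4 libraries. The lists differ in length, so equal places give unequal percents.

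METTL3 peaks at the 35 genes were almost confined to Jarid2. Jarid2 had a peak in all 4 METTL3 libraries (0.151% of all protein-coding genes did), and Kmt2c had 1 in Mettl14 control replicate 1. The METTL3 regions of both libraries at Jarid2 were chromosome 13: 44869496 to 44869789 in Mettl14 CKO cells and 44869467 to 44869759 in Mettl14 control cells, the only such region at the 35 genes in either group. Of all genes, 0.164% had one in Mettl14 CKO cells and 0.151% in Mettl14 control cells. The Kmt2c peak lay 175584 bp downstream of the start and did not overlap the METTL14 peak of that gene. The number of genes with a METTL3 peak was 1 and 1 in Mettl14 CKO libraries (0.393% and 0.584% of all genes), against 2 and 1 in Mettl14 control libraries (0.635% and 0.566%), a difference of -0.5 (two-sided exact permutation p = 1).

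In control libraries 9 and 8 of the 35 genes had a METTL14 peak, against 2 and 1 with a METTL3 peak, a difference of 7 genes (two-sided exact permutation p = 0.333, the smallest possible). The groups did not overlap, but antibody and line changed together and the METTL3 lists were far shorter. With all 8 lists shortened in deposited order to 242 peaks, 1 and 1 genes had a METTL14 peak in control libraries, against 2 and 1 with a METTL3 peak, and the difference was -0.5 (exact permutation p = 1). At that length the only genes of the 35 in any control list were Jarid2 and Kmt2c, with backgrounds of 0.306% and 0.32% of all genes for METTL14 and of 0.329% and 0.361% for METTL3. In the CKO libraries at that length, 1 and 2 genes had a METTL14 peak (0.365% and 0.397% of all genes), Jarid2 in both and Cbx8 in replicate 2, and Jarid2 alone had a METTL3 peak (0.393% and 0.402%). Antibody, line and list length cannot be told apart in this contrast.

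Other genes of the same pathways, 40 in all, were counted in the same way. METTL14 regions of both libraries were at 2 of 40 in Mettl3 CKO cells (3.15% of all protein-coding genes). In Mettl3 control cells they were at 4 of 40 (3.82% of all). Both counts are too small to set the list apart from all genes. Among the 35 genes the counts were 5 and 4, and the gene lists were not tested against each other. In single CKO libraries 8 and 2 of the 40 had a METTL14 peak (12.9% and 4.91% of all genes). In control libraries 10 and 5 did (9.71% and 11.2%). The share of the 40 was close to that of all genes in CKO replicate 2 and control replicate 2. It was above that of all genes in CKO replicate 1 and control replicate 1. In CKO replicate 1 and control replicate 1 a share above all genes was thus not particular to the 35, which was not tested. Sfmbt2, a Polycomb-linked imprinted gene, had 1 and 2 METTL14 peaks in CKO libraries, against 2 and 2 in control libraries, and Kdm4a, an H3K9 and H3K36 demethylase gene, had 1 in each of the 4. Setd1b, an H3K4 methyltransferase gene, had 1 and 0 in CKO libraries, against 2 and 1 in control libraries. Paxip1, a partner of KMT2C and KMT2D, had 0 and 0 in CKO libraries, against 1 and 2 in control libraries. The 4 genes of the deubiquitinase complex PR-DUB (Bap1, Asxl1, Asxl2 and Asxl3) had no peak in any of the 8 lists. In the METTL3 lists Kdm4c had a peak in both Mettl14 control libraries but no region shared by them.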

How the data were processed

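The authors deposited 1 peak list per library, with coordinates and a score of 1 for every peak. Per the submitters' processing notes, the build was mm10, and the tools listed there, whose use is not described, were HOMER, SAMtools, Bowtie2 2.4.1, Trimmomatic 0.38 and CASAVA. How peaks were called, against which background and at what depth is not stated in the sources used. The members and gene lists were chosen with earlier results of these data known.

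Gene positions were read from RefSeq (GRCm38.p6, the mm10 assembly). All 35 members matched, and 29 had an entry in the RefSeq promoter table (not Pcgf1, Cbx2, Rybp, Yaf2, Kdm6b or Kmt2b). A gene had a peak when at least 1 bp of the peak fell in it or within 2 kb of it. A region of both libraries was a run of overlapping peaks that held a peak of each. Libraries were compared by exact permutation (two-sided). The code, in Python 3.11.15, was tested on simulated lists. The rule named all members, with values for every member that had a region of both libraries, and up to 6 pathway genes with such a region. Exons were not analysed. The alternatives tried were other windows, transcription starts, overlaps, shortened lists, the nearest gene, single libraries and the replicate number as a block.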

Additional observations from a re-analysis of the deposited data

How the results depend on the processing

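The difference in METTL14 genes between Mettl3 CKO and control was 0.5 to 3 over the 10 alternatives that kept all libraries (exact permutation p 0.333 to 1), and ranged from -2.5 to 5.5 when a library was left out. The difference in share of list stayed positive (0.0544 to 0.184 percentage points over libraries left out). The METTL3 difference was 0 within 2 kb of a gene boundary or of a transcription start, and -1 to 0 with a library left out. METTL14 minus METTL3 in control libraries was 6.5 to 7.5 genes with a library left out, and -0.5 with all 8 lists shortened. Genes with a METTL14 region of both libraries numbered 3 in CKO and 2 in control cells near transcription starts, which leaves out 6 genes by construction. The shares of all genes with a start were 2.46% and 3.03%. With a peak in either library they numbered 14 and 12, for which the share of all genes was not counted. Single libraries gave 6 to 14 in CKO (4.91% to 12.9% of all genes) and 8 to 9 in control cells (9.71% to 11.2%). For METTL3 the count was 0 in both groups within 2 kb of a boundary or a start and, in an alternative chosen after seeing the data, without Jarid2. It was 2 in Mettl14 control cells with a peak in either library, and 1 to 2 for single libraries there and 1 for those of Mettl14 CKO cells. At 50% reciprocal overlap Ezh2 in CKO and Bmi1 in control cells lost their region. With peaks widened by 500 bp, Bmi1 gained one in CKO and Phc1 in control cells. With a window of 5 kb, Kdm6b gained one in both groups. Replicate numbers only name libraries. With them as a replicate block, the exact permutation p was 1 for the number of METTL14 genes, 1 for METTL3, 0.5 for the share of list and 0.5 for the antibodies (0.5 is the smallest possible), and no difference changed. With 2 libraries a group, no test could reach 0.05, and the unknown depth limits what an absent peak shows.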
